A study of Mus musculus with 6 samples.

Results

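The Kruppel-like factors (Klf) are transcription factors that bind CACCC elements and GC-rich boxes through zinc fingers at their C-terminal end. Different members activate or repress overlapping sets of genes, and several are induced quickly by hormones, blood flow, growth factors or injury. In kidney, Klf9 and Klf15 are known as glucocorticoid-induced members, Klf2 and Klf4 are best known from endothelium, and Klf5 from epithelium of the collecting system. The 10 genes described here, Klf2, Klf3, Klf4, Klf5, Klf6, Klf9, Klf10, Klf11, Klf13 and Klf15, were taken from 21208 genes tested. They were chosen by name, selected on a contrast of Klf9 and Klf15 with the other members in log2 intensity between arrays labelled KO and WT. Those differences are therefore given as a description, with no test.

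Kidney RNA came from 6 neonates about 6 hours after birth, all labelled male, 3 labelled USP10 KO and 3 labelled USP10 WT, with 1 single-colour array per neonate. The labels name no strain, and the sources used here do not say how or in which cells Usp10 was inactivated. Usp10 encodes a deubiquitinating enzyme. Values are log2 of the processed intensity minus the 75th percentile of the same array, so 0 is the level at that percentile. Each member had 1 probe, and all 10 probes were well above background on all 6 arrays.

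Some features of the arrays bear on every value. The Usp10 probe, which may lie outside the deleted part, read 3.64, 3.37 and 3.56 on KO replicates 1 to 3 and 3.01, 3.12 and 2.95 on WT replicates 1 to 3. This log2 difference of 0.50 ± 0.16 (SE, limma adjusted p = 0.414) has the opposite sign to the labels, by which the groups are named throughout. KO replicates 1 and 2 and WT replicates 2 and 3 shared 1 scan time (scan 1), and KO replicate 3 and WT replicate 1 shared another (scan 2). Of the Y chromosome, Uty, Ddx3y and Eif2s3y failed to exceed background on WT replicate 2 alone, and Kdm5d exceeded it on KO replicate 2 alone. Xist, the RNA of the inactive X chromosome, was above background by 1 probe on WT replicates 1 and 2. Another Xist probe was above it on WT replicate 2 alone. Markers of proximal tubule (8 of 8), podocytes (8 of 8) and nephron progenitors (7 of 7) passed the filter on dim probes.

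Only for Klf9 and Klf15 did the arrays labelled KO stand apart from those labelled WT, and both were higher. The promoters of both genes are shown first, as RefSeq (GRCm38.p6) gives them, from 250 bases before the start of transcription up to it, on the plus strand. The window of Klf9 is chr19:23140976-23141225 and that of Klf15 chr6:90462326-90462575. That of Klf2, chr8:72318812-72319061, stands beside them as a member whose groups overlapped. Capitals mark CACCC on either strand in all of them, TGACG (the core of the cAMP response element) in Klf9, CACGTG (the E-box, bound by clock proteins among others) in Klf15, and the MEF2 site in Klf2.
Klf9: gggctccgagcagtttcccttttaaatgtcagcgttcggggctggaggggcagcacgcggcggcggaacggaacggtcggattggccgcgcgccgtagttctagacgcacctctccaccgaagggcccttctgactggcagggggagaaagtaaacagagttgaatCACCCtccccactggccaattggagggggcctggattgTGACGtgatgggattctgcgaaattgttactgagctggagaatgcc
Klf15: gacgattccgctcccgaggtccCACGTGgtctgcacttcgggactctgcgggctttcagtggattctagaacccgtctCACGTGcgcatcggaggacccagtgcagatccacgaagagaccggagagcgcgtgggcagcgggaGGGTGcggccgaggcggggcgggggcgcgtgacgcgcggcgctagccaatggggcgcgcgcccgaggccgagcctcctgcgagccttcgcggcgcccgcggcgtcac
Klf2: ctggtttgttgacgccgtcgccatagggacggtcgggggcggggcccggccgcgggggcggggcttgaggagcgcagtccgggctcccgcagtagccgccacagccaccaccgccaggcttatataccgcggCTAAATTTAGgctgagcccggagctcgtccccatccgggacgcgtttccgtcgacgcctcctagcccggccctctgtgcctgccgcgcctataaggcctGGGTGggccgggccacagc

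The windows of Klf9 and Klf15 differ in the letters they hold. That of Klf15 had 2 E-boxes, 228 and 172 bases before the start, while that of Klf9 had none. The E-box was held by 4 of the 8 members with a window, the others being Klf4, Klf6 and Klf11. TGACG was found in both, once in Klf9, 46 bases before the start, and 2 times in Klf15, 78 and 6 bases before it and not capitalised, and 5 of the 8 members with a window held it. Of 32851 RefSeq windows of this length, 6.02% held CACGTG and 17.8% TGACG on either strand. Klf9 was the only 1 of the 8 members with a window that lacked the GC box GGGCGG, which 32.7% of all windows held. CACCC was found once in each of the 3 windows printed, and in 52.0% of all windows. The MEF2 site of Klf2, 118 bases before its start, was matched in 0.508% of all windows. Neither the palindromic glucocorticoid response element nor its hexamer TGTTCT was found in any of the 8 members' windows at hand. They were found in 0.00913% and 16.1% of all windows. No measurement of binding was set beside these windows. Matches and their lack describe these letters only.

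Klf9, which glucocorticoid and thyroid hormones induce and which recruits Sin3 corepressors, stood at 1.80, 2.10 and 2.20 on KO replicates 1 to 3 and at 0.80, 0.41 and 0.64 on WT replicates 1 to 3. All 3 values labelled KO lay above all 3 labelled WT, with a gap between the groups wider than either group's range. The group means were 2.03 ± 0.21 and 0.62 ± 0.20 (SD, n = 3 each), a log2 difference of 1.42 ± 0.19 (SE), or 2.67-fold. Within scan 1 the difference was 1.43 and within scan 2 it was 1.40. Without WT replicate 2 it was 1.31, without WT replicate 1 it was 1.51, and against WT replicate 3 alone it was 1.39. The direction was thus the same without each array that had Xist signal.

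Klf15, a regulator of amino acid breakdown and glucose production in fasting and of podocyte differentiation, had the largest difference among the members and more spread within each group. It read 2.63, 3.49 and 3.74 on KO replicates 1 to 3 and 1.79, 1.26 and 0.63 on WT replicates 1 to 3. The groups did not overlap, KO replicate 1 being the lowest of its group and WT replicate 1 the highest of the other. Group means were 3.29 ± 0.58 and 1.23 ± 0.58 (SD, n = 3 each), which gave a log2 difference of 2.06 ± 0.38 (SE), or 4.17-fold. It was 2.12 within scan 1 and 1.95 within scan 2. Leaving out WT replicate 2 gave 2.08 and leaving out WT replicate 1 gave 2.34, while against WT replicate 3 alone, the array with the least Klf15, the difference was 2.66.

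In the order of all 21208 differences from highest to lowest, Klf15 was number 19 and Klf9 number 111. A log2 difference of at least 1 was found in 1.66% of all genes. Klf9 and Klf15 were the 2 of 10 members whose groups did not overlap, both higher. Over all genes, the groups did not overlap in the higher direction for 10.2% and in the lower direction for 8.0%, and since these differences were known when the genes were listed, nothing is read from that count. In bulk kidney RNA, more cells with a transcript cannot be told apart from more of it per cell.

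**Figure D1:**
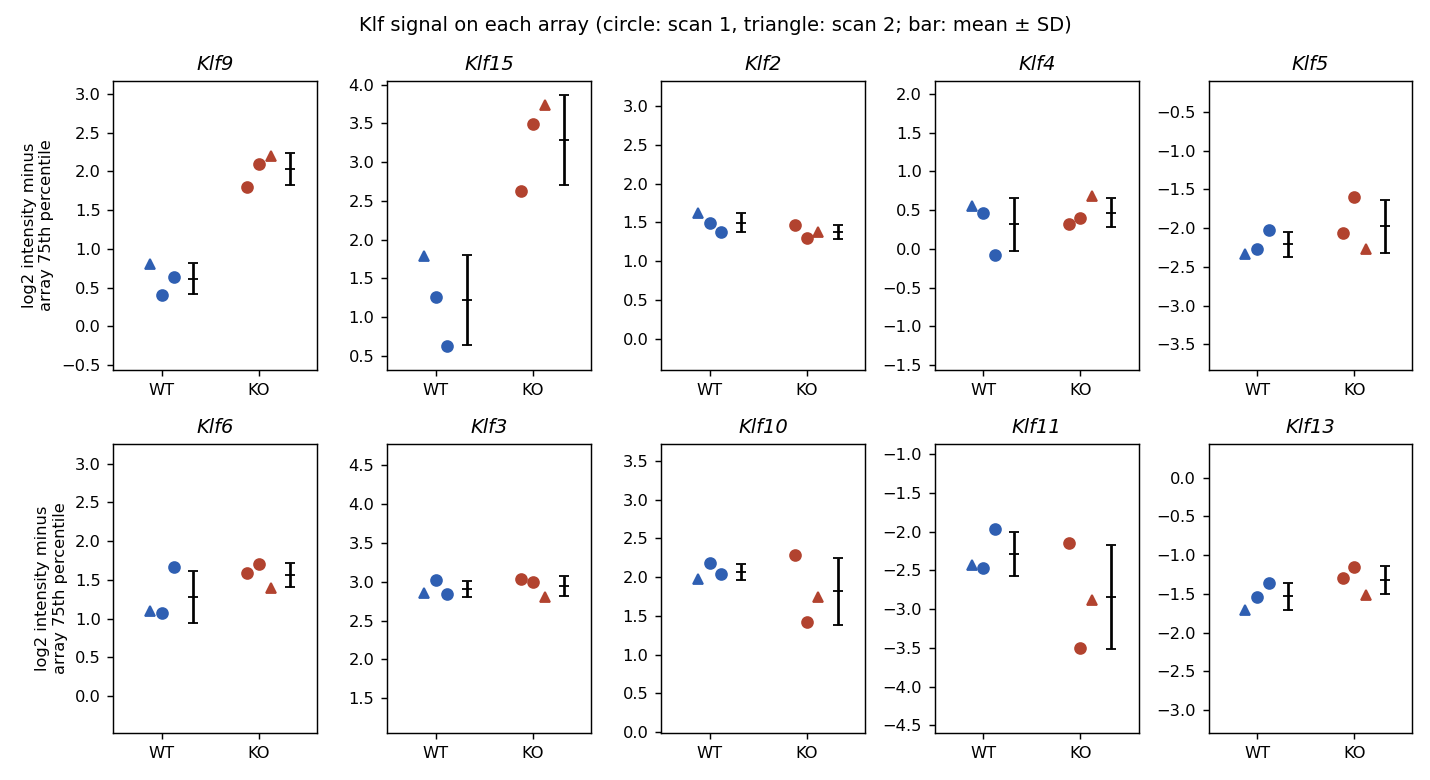
Log2 processed intensity minus the array's 75th percentile (vertical axis, the same span in every panel) for each Klf gene on the WT and KO arrays. Points are single arrays, circles from scan 1 and triangles from scan 2, and bars give the mean ± SD (n = 3). Klf9 and Klf15 are the panels in which all KO points lie above all WT points.

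Markers of other cells differed between the same groups, none of them past the test over all genes. All 10 urothelial markers had a positive difference, with a median of 0.52, and their summed level (log2 of summed relative intensity) ran from 3.32 to 4.08 on the arrays labelled KO and from 2.68 to 3.19 on those labelled WT. The 5 tested liver markers summed to between 4.92 and 5.19 on KO arrays and to between 4.56 and 4.91 on WT arrays, without the list's Apoa1, which was above background on no array. Of these 5, 3 had a positive and 2 a negative difference, with Alb, the albumin gene, at -1.59. The 7 tested macrophage markers summed to between 2.38 and 2.50 against between 2.52 and 2.79, lower on the arrays labelled KO. Of these 7, 5 had a negative and 2 a positive difference, from -1.58 to 0.14. The 5 tested adrenal markers summed to between -0.48 and 0.16 against between -0.77 and -0.63. Of these, 3 had a positive and 2 a negative difference, from Hsd3b1 at 1.78 to Cyp11b1 at -0.60, while Cyp11a1 and Cyp11b2, which define steroid-producing adrenal cells, were above background on no array. In several other lists most members had negative differences while the sums of the groups overlapped. The 7 nephron progenitor markers had a median difference of -0.63 (5 negative; sums of 3.79 to 4.38 on KO arrays and 3.90 to 4.43 on WT arrays). The 7 neutrophil markers had a median of -0.44 (6 negative), although their sums ran from 5.56 to 6.29 against 5.40 to 5.89. All 6 mural and renin cell markers had a negative difference, with a median of -0.27 and sums of 3.41 to 4.53 against 4.30 to 4.82. Podocyte markers (5 of 8 negative) had a median of -0.30, and stroma and fibroblast markers (6 of 7 negative) one of -0.25. Sums also overlapped for the 9 collecting duct markers, of which 7 had a positive difference (median 0.12). The part of these cells in the Klf9 and Klf15 differences was not tested.

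Klf2 and Klf4, which laminar flow induces in endothelium, did not separate the groups. Klf2 read 1.46, 1.29 and 1.37 on the KO arrays and 1.62, 1.49 and 1.38 on the WT arrays, a difference of -0.12 ± 0.16 (SE). Klf4, also a regulator of epithelial differentiation, read 0.32, 0.40 and 0.68 against 0.55, 0.47 and -0.076, a difference of 0.15 ± 0.22 (SE). For Klf4 WT replicate 3 lay apart below the other arrays, and the difference was -0.046 without it and 0.54 against it alone. The summed level of 12 endothelial markers ran from 5.41 to 5.60 on the arrays labelled KO and from 5.30 to 5.58 on those labelled WT, so those ranges overlapped. Of the 12, 8 had a negative and 4 a positive difference, from -0.75 to 0.19 with a median of -0.19. None passed the limma test over all genes, and 3 had an unadjusted p under 0.05, beside 10.4% of all genes.

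Klf5 and Klf6 were slightly higher on average on the arrays labelled KO, within the spread of single arrays. Klf5, a factor of dividing epithelium that is also found in urothelium, read -2.07, -1.60 and -2.27 on the KO arrays and -2.34, -2.26 and -2.03 on the WT arrays. Its difference of 0.23 ± 0.22 (SE) was 0.043 without KO replicate 2, the array highest in Klf5. Klf6, induced early after tissue injury, read 1.59, 1.71 and 1.39 against 1.10, 1.07 and 1.66, a difference of 0.28 ± 0.21 (SE). WT replicate 3 reached the KO range for Klf6, and without it the difference was 0.48, while against it alone it was -0.10. How far urothelial RNA, higher on the arrays labelled KO, enters the Klf5 values was not tested.

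Klf3 and Klf13, both known mainly as repressors, showed no separation either. Klf3, which recruits the corepressor CtBP, read 3.03, 3.00 and 2.80 on the KO arrays and 2.86, 3.02 and 2.84 on the WT arrays. Its difference, 0.038 ± 0.16 (SE), was the smallest in size among the members, and its sign turned with quantile normalisation (-0.092). Klf13, a Sin3-binding member like Klf9, read -1.29, -1.15 and -1.51 against -1.70, -1.54 and -1.35, a difference of 0.21 ± 0.18 (SE) that was 0.035 against WT replicate 3 alone.

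Klf10 and Klf11, the TGF-beta inducible early genes, had negative differences and more spread on the arrays labelled KO than on those labelled WT. Klf10 read 2.28, 1.43 and 1.75 on KO replicates 1 to 3 and 1.98, 2.18 and 2.04 on WT replicates 1 to 3. KO replicate 1 lay above all WT arrays and the other 2 below them, so that the difference of -0.25 ± 0.24 (SE) was -0.48 without KO replicate 1 and -0.049 without KO replicate 2. Klf11 read -2.15, -3.50 and -2.88 against -2.43, -2.47 and -1.96, a difference of -0.56 ± 0.34 (SE). It was -0.90 without KO replicate 1 and -0.23 without KO replicate 2. Klf11 was dim on KO replicates 2 and 3, at unscaled intensities of 27.0 and 44.4. It read 107 on KO replicate 1 and 91.6, 88.5 and 149 on the arrays labelled WT. KO replicates 2 and 3 also had the lowest log2 75th percentiles, 8.256 and 8.352, against 8.885 to 9.184 on the other arrays. With normexp background correction its difference was -0.10 after scaling to the 75th percentile and -0.29 after quantile normalisation.

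The 8 members besides Klf9 and Klf15 had a median log2 difference of 0.094, beside 0.031 for all genes tested, and ranged from -0.56 to 0.28. The median was 0.12 within scan 1 and 0.0077 within scan 2, and -0.020 without WT replicate 3. Of the 8, 5 had a positive and 3 a negative difference. The highest of them, Klf6 at 0.28, was well short of Klf9 at 1.42 and Klf15 at 2.06.

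**Figure D2:**
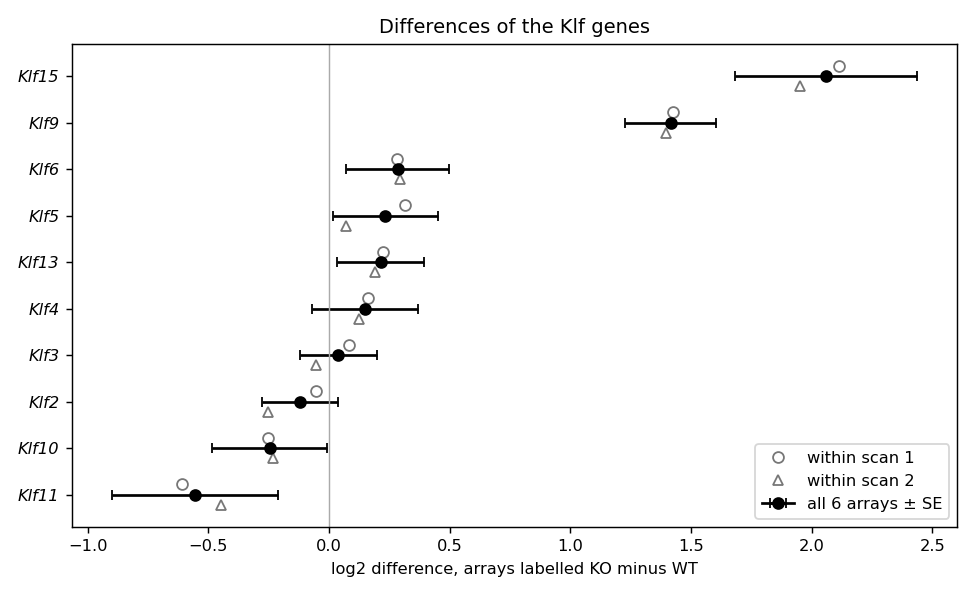
Log2 difference, arrays labelled KO minus WT (horizontal axis), for each Klf gene, with the SE of the limma fit as bars and the differences within scan 1 (circles) and scan 2 (triangles). Klf15 at 2.06 and Klf9 at 1.42 stand apart from the others, which lie between -0.56 and 0.28.

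**Figure D3:**
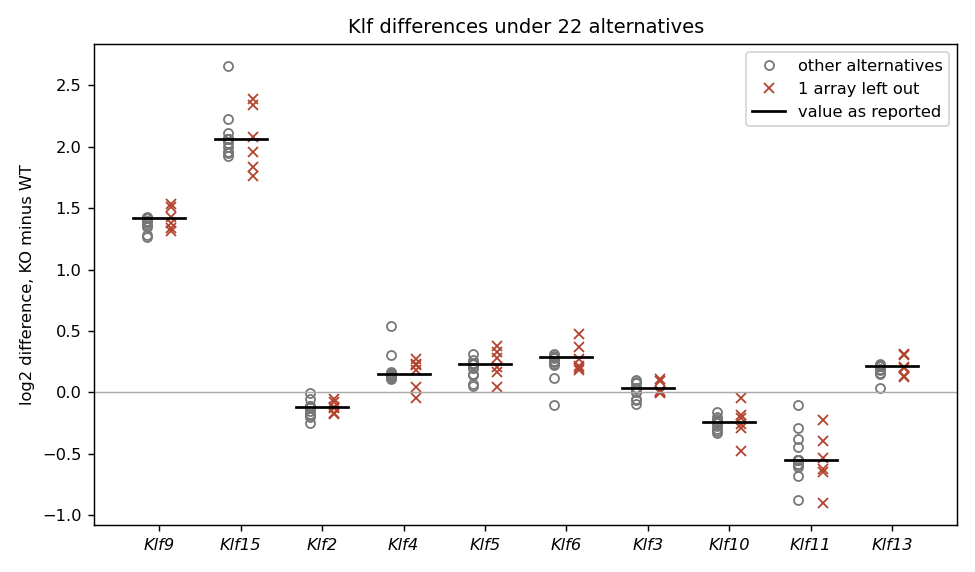
Log2 difference of each Klf gene (vertical axis) as reported (line), with 1 array left out (crosses) and under the other alternatives (open circles). Klf9 stayed between 1.27 and 1.53 and Klf15 between 1.76 and 2.66 over 22 alternatives, while Klf3, Klf4 and Klf6 crossed 0 in some.

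The scan was not used in listing the members, and the signal of each was tested between scans with genotype as a term. None of the 10 passed (limma, adjusted p over all genes), with 1 at an unadjusted p under 0.05, against 9.37% of all genes that passed and 26.7% at an unadjusted p under 0.05. That 1 was Klf15, higher in scan 2 by 0.76 ± 0.29 (SE, adjusted p = 0.154). The genotype difference itself was also compared between scans. No member passed (adjusted p = 1 for each), as none of the 21208 genes did, where 113 genes (0.533%) but no member had an unadjusted p under 0.05. With SEs of these interactions between 0.42 and 0.73, only large differences between scans could have been found.

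The rest of the family was tested as genes outside the list. Of 16 further Klf and Sp genes 13 passed the filter on dim probes, and Sp7, Sp8 and Sp9, developmental factors, did not. None of the 13 passed the test over all genes, of which 0.0802% passed. An unadjusted p under 0.05 was found for 2 of the 13 and for 10.4% of all genes, and the median log2 difference was 0.14 beside 0.031 for all genes. These 2 were Klf16, a repressor of the Sin3-binding group, at -0.48 ± 0.17 (SE, limma adjusted p = 0.439), and Klf8, a CtBP-binding repressor, at 0.56 ± 0.23 (SE, adjusted p = 0.475). The groups did not overlap for these 2 of the 13, Klf16 being lower and Klf8 higher on the arrays labelled KO. Over all genes they did not overlap for 18.2%, in either direction, so nothing is read from that count. The remaining Klf genes had differences of -0.29 (Klf1, the erythroid factor), 0.14 (Klf7), -0.069 (Klf12), -0.53 (Klf14) and 0.61 (Klf17). Klf17 differed between scans in sign, at 1.02 within scan 1 and -0.20 within scan 2. Sp1 to Sp6, the general and developmental GC-box factors, ranged from Sp1 at -0.38 ± 0.22 (SE) to Sp3 at 0.56 ± 0.44 (SE). Between scans, with genotype as a term, 3 of the 13 passed (Klf7, Sp3 and Sp6), beside 9.37% of all genes. Sp3 was higher in scan 2 by 1.18 ± 0.17 (SE, limma adjusted p = 0.0115).

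Hormone receptors and other hormone-induced genes were set beside Klf9 and Klf15. Of 24 listed genes 20 were tested. At an unadjusted p under 0.05, 12 of the 20 were higher, as were 1319 of all 21208 genes. Past the threshold, 2 of the 20 rose and 0 fell, while 0.0189% of all genes passed in the higher and 0.0613% in the lower direction. The 2 were Zbtb16, a zinc-finger factor that glucocorticoids induce, at 2.46 ± 0.27 (SE), and Cebpd, a bZIP factor, at 1.83 ± 0.18 (SE), each with a limma adjusted p of 0.0449. Both calls were lost without any 1 of the 6 arrays, where adjusted p lay between 0.0600 and 0.257 and the differences between 2.29 and 2.71 for Zbtb16 and between 1.70 and 1.92 for Cebpd. The median of the 20 was 0.64, beside 0.031 for all genes tested. This list was chosen with its direction known and is no independent evidence of it.

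Among the listed genes that did not pass, Errfi1, a feedback inhibitor of the EGF receptor, had a difference of 1.59 ± 0.19 (SE, limma adjusted p = 0.0519) and Ddit4, an mTOR inhibitor, one of 1.48 ± 0.22 (SE, adjusted p = 0.0797). With scan as a block Errfi1 passed (adjusted p = 0.0348) and 3 genes of this list were called higher, beside 0.113% of all genes. The transcript of the glucocorticoid receptor itself, Nr3c1, had a difference of 0.052 ± 0.16 (SE, adjusted p = 0.915). The thyroid hormone receptor genes Thra and Thrb had differences of 0.22 ± 0.22 and 0.27 ± 0.16 (SE). Nr3c2, the mineralocorticoid receptor gene, Pgr and Hsd11b2 were among those too dim to be tested.

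**Figure D4:**
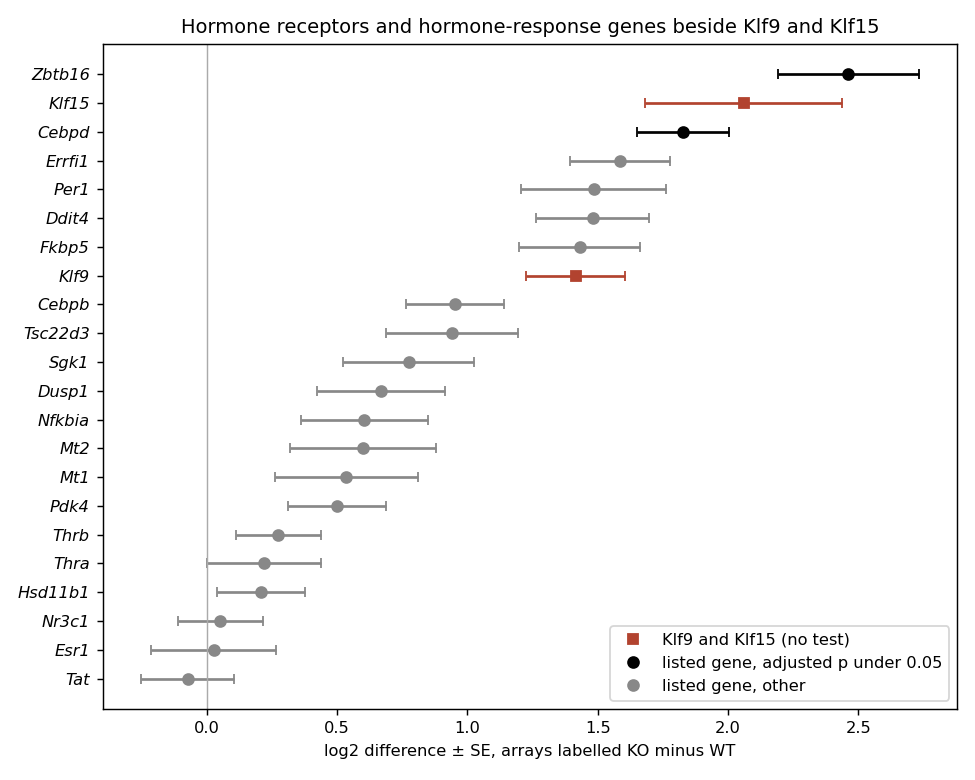
Log2 difference ± SE, arrays labelled KO minus WT (horizontal axis), of 20 tested hormone receptor and hormone-response genes, with Klf9 and Klf15 as squares. Black points passed the limma test over all genes (Zbtb16 and Cebpd). Klf15 lies between Zbtb16 and Cebpd, and Klf9 just below Fkbp5 at 1.43.

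Metabolic genes set beside Klf15 and proteins that act on Klf factors gave no call. Of 20 tested metabolic genes listed for Klf15, mostly of amino acid breakdown but also Acss1 and the glucose transporter gene Slc2a4, none passed. An unadjusted p under 0.05 was found for 3 of them, all higher, and for 10.4% of all genes in either direction. The median of the 20 was 0.047. The smallest p belonged to Got1, aspartate aminotransferase, at 1.00 ± 0.33 (SE, limma adjusted p = 0.416). Next came Acss1, a mitochondrial acetyl-CoA synthetase, at 0.60 ± 0.21 (SE), Ivd, of leucine breakdown, at 0.41 ± 0.18 (SE), and Prodh, proline dehydrogenase, at 0.65 ± 0.28 (SE). Of 17 tested corepressors, acetyltransferases and ubiquitin enzymes, none passed and none had an unadjusted p under 0.05. Their median was -0.042, and Sin3b, the corepressor subunit, had a difference of 0.43 ± 0.23 (SE) and Ctbp1 one of 0.31 ± 0.19 (SE).

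The pathways around the remaining members were likewise without a call by limma. Of 13 tested genes of the MEKK3, MEK5, ERK5 and MEF2 route to Klf2 and Klf4, none had an unadjusted p under 0.05, with a median of 0.085 and a difference of -0.33 ± 0.20 (SE) for Mapk7, which encodes ERK5. Of 13 tested endothelial response genes of Klf2 and Klf4, 3 had an unadjusted p under 0.05, beside 10.4% of all genes, and the median of the 13 was -0.0045. These 3 were Cdkn1a at 1.30 ± 0.20 (SE, adjusted p = 0.0887), a cell cycle inhibitor that p53 and glucocorticoids also induce, Vegfa at -0.59 ± 0.19 (SE) and Ccl2 at -1.47 ± 0.48 (SE). Nos3 and Thbd, the best known endothelial targets of Klf2, had differences of -0.26 ± 0.17 and 0.23 ± 0.21 (SE).

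Of 15 tested TGF-beta pathway genes, on which Klf10 and Klf11 act, 1 had an unadjusted p under 0.05, the ligand gene Tgfb1 at -0.61 ± 0.24 (SE, limma adjusted p = 0.461), and the median was -0.030. Over all genes, that share was 10.4% in either direction, which also stands beside the lists below. Of 18 tested immediate early genes 7 had an unadjusted p under 0.05, 5 higher and 2 lower, with a median of 0.14. Among them Gadd45g, a stress-response gene, was at 1.08 ± 0.24 (SE, limma adjusted p = 0.269), and Fosl2, an AP-1 subunit, at 0.65 ± 0.21 (SE). Myc and Atf3 lay in the other direction, at -0.62 ± 0.22 and -0.47 ± 0.18 (SE). Egr3, Fosl1, Ier2, Junb and Nr4a3 were too dim to be tested. Of 12 housekeeping genes 2 had an unadjusted p under 0.05, both lower, namely B2m at -1.0 ± 0.19 (SE), which interferon also induces, and Pgk1 at -0.50 ± 0.21 (SE), and the list's median was 0.14.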

How the data were processed

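Cy3-labelled kidney cRNA was hybridised to single-colour Agilent mouse arrays and read with Agilent Feature Extraction. The file headers give version 11.0.1.1 of it, and the submitters' processing notes give 9.1. Per the file headers, the authors' deposited intensity is on a linear scale, background-subtracted, and not normalised between arrays. Of 44397 spots per array 1377 controls were left out. Between 64.4% and 73.9% of the others were well above background, and none was saturated. The number of arrays limits precision.

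Each array's 75th percentile over all non-control spots was subtracted from the log2 intensity. Outlier spots were then removed and repeated spots were averaged. A RefSeq symbol was found by accession for 27234 of 39429 probes. Probes had to be well above background on every array of either group, and a gene took its brightest such probe. The limma 3.58.1 fit in R 4.3.3 was two-sided with Benjamini-Hochberg adjustment and a threshold of 0.05, and was tested on simulated data. The series' design text calls the neonates independent, and litters are not given.

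Members, 9 pathway lists, 16 marker lists and the naming rule were all chosen with earlier results of these data known. Named were every member, all other Klf and Sp genes, up to 4 genes per list with the smallest p and any past the threshold, and the 5 genes most like Klf9 and Klf15. Genes named beyond that rule (Nr3c1, Thra, Thrb, Fkbp5, Nos3, Thbd, Hsd3b1, Cyp11b1, Alb, Slc2a4) were chosen for their function or after their values were seen. Alternatives were other scalings, normexp background correction (offset 50, on median signals), other filters and probe rules, other variance models, scan and replicate blocks, and leaving out each array.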

Additional observations from a re-analysis of the deposited data

How the results depend on the processing

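Of 21208 genes, 17 passed in limma (4 higher, 13 lower). The count was 45 with an intensity trend and robust variance, 36 with array weights, 58 with scan as a block, 74 at an adjusted p under 0.1 and 2203 at an unadjusted p under 0.05. It was 1 with the mean of probes and 1 with only probes above background on all 6 arrays. It was 0 with normexp and quantile normalisation (2245 at an unadjusted p under 0.05), with no filter (2051), against WT replicate 3 alone (1839) and without WT replicate 2 with scan as a block (5135). Leaving out 1 array gave between 0 and 13.

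Of 140 listed genes 2 passed, 4 after normexp scaled to the 75th percentile, and 4 under the intensity trend. With normexp and quantile normalisation, with no filter, with the stricter filter, with the mean of probes, against WT replicate 3 alone, and without WT replicate 2 with or without the scan block, 0 passed. Leaving out any 1 array gave 0 (limma, between 18 and 34 at an unadjusted p under 0.05).

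The labels name no pairing of the arrays. The deviations of same-numbered arrays from their group means correlated at -0.396, 0.481 and -0.601. Those of KO replicate 3 and WT replicate 1, which shared scan 2, correlated at 0.887. Since the scan enters these correlations, they cannot tell whether same-numbered arrays were paired, for example by litter. With a replicate block 0 genes passed (1611 at an unadjusted p under 0.05) and 0 listed genes, and the differences of Klf9 and Klf15 are the same by construction (1.42 and 2.06).

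Klf9 kept its sign and stayed within 1 SD in all 22 alternatives, and Klf15 in all but that against WT replicate 3 alone (2.66). Several of the 22 could not move a member, each having 1 probe above background on all 6 arrays. These were the other filters and probe rules, the intensity trend with robust variance, and the scan and replicate blocks on all 6 arrays. Leaving out 1 array gave 1.31 to 1.53 for Klf9, 1.76 to 2.39 for Klf15 and -0.020 (without WT replicate 3) to 0.14 for the median of the others, the one change of sign of that median. Klf3 turned negative with quantile normalisation (-0.092), normexp with the 75th percentile (-0.0015) or with quantile normalisation (-0.062), within scan 2 (-0.056) and without KO replicate 1 (-0.0053, in a range up to 0.11). Klf4 did so without WT replicate 3 (-0.046, in a range up to 0.27) and Klf6 against WT replicate 3 alone (-0.10). The cause was not tested. Normexp with the 75th percentile moved the median of all genes from 0.031 to 0.14. All 10 members were well above background on all 6 arrays, while listed genes too dim for the filter were not tested.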

Other observations

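Across the 6 arrays Klf9 and Klf15 correlated at a Pearson r of 0.949, a description in which the points share the genotype difference. Within the arrays labelled KO both were lowest on replicate 1 and highest on replicate 3. Within those labelled WT both were highest on replicate 1, and Klf9 was lowest on replicate 2 and Klf15 on replicate 3. Klf10 and Klf11 correlated at 0.891, both lowest on KO replicate 2, with Klf10 highest on KO replicate 1 and Klf11 on WT replicate 3. Klf13 correlated with Klf5 at 0.914 and with Klf6 at 0.901.

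Among 14495 other named genes, those most like Klf9 over the 6 arrays were Trp53inp1, a p53 target (r = 0.996), Insig1, which restrains cholesterol synthesis (0.994), Rasgef1b (0.994), Usp53 (0.993) and Cdkn1a (0.993). Their log2 differences between labels were 1.58, 1.08, 1.00, 0.78 and 1.30. Those most like Klf15 were Kbtbd11 (0.998), Supt16, a histone chaperone subunit (0.996), Ptar1 (0.996), Abtb1 (0.995) and Cdc14b, a phosphatase (0.995), with log2 differences of 0.65, 0.49, 0.49, 0.37 and 0.66. The genes of these 2 sets do not overlap. The points share the genotype difference here too, and no p is given.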
